A study of Mus musculus with 2 samples.

Results

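S100 proteins are small proteins, most of which bind calcium. In single cells of the inflamed mouse lung 6 of their genes are described here: S100a8, S100a9, S100a4, S100a6, S100a10 and S100a11. They were picked by gene symbol and were 6 of the 32285 genes counted, each with 1 matching row in both count tables. Cells were dissociated from the lower lobe of the left lung. The mice were males of the outbred ICR stock, aged 6 to 8 weeks. The LPS_MCZ library pooled the mice given lipopolysaccharide (LPS, the bacterial cell wall component used to inflame the lung) and miconazole (MCZ, an azole antifungal). The LPS library pooled the mice given LPS alone, so both groups carried the LPS challenge and no untreated lung is described. The sample's own label gives 0.2 mg/kg of miconazole and its protocol text 1 mg/kg, and the sources used here do not give the number of mice, the LPS dose or the times.

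S100a8 and S100a9 form a heterodimer, calprotectin, which fills the cytosol of neutrophils, binds calcium and zinc, and outside the cell acts as an alarmin that signals through Tlr4 and the receptor for advanced glycation end products (Ager). The other members work mainly inside cells through partner proteins: S100a4 binds the non-muscle myosin heavy chain Myh9, S100a6 binds Cacybp, S100a10 joins annexin A2 at the membrane, and S100a11 binds annexin A1. S100a4, S100a6, S100a10 and S100a11 are widely expressed in myeloid cells, memory lymphocytes, epithelium and mesothelium, whereas S100a8 and S100a9 are best known from neutrophils and monocytes.

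All 6 genes lie on mouse chromosome 3 in 2 groups (GENCODE M21 annotation, GRCm38). S100a4 (90603771 to 90606045, plus strand), S100a6 (90612882 to 90624181, plus), S100a8 (90668978 to 90670035, plus) and S100a9 (90692632 to 90695721, minus) span 92.0 kb, and S100a11 (93520488 to 93526287, plus) and S100a10 (93555080 to 93564643, plus) span 44.2 kb. Each has at most 3 exons per transcript. S100a4 overlaps 1 other annotated gene, Gm42674, and the other 5 members overlap none. S100a8 and S100a9 are 22.6 kb apart on opposite strands, and their levels ran almost in parallel in the results that follow, whereas those of S100a4 and S100a6, in the same 92.0 kb, did not. The start regions of these 4 genes are shown for that reason, from RefSeq on GRCm38.p6, as 250 bases before the annotated start and 30 bases after it, 5′ to 3′ on the strand of the gene. Capitals mark TATAAA, the core of the TATA box. S100a8 is chr3:90668821-90669100 (plus), S100a9 chr3:90695692-90695971 (minus), S100a4 chr3:90603520-90603799 (plus) and S100a6 chr3:90612644-90612923 (plus).
S100a8: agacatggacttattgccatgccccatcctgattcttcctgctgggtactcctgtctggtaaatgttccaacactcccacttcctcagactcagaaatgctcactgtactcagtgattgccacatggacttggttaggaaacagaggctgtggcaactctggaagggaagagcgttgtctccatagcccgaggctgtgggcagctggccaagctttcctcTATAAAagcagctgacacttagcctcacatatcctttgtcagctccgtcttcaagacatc
S100a9: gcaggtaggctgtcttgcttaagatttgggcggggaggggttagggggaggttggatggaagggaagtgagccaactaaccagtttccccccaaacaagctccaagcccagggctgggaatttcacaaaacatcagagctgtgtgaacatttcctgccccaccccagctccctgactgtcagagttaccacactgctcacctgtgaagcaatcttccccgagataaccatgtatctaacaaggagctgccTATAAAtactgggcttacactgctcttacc
S100a4: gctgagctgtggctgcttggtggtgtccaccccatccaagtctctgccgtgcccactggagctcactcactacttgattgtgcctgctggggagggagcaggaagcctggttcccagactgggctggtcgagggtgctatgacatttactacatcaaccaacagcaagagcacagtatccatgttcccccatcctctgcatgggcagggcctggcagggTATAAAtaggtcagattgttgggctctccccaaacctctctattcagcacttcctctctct
S100a6: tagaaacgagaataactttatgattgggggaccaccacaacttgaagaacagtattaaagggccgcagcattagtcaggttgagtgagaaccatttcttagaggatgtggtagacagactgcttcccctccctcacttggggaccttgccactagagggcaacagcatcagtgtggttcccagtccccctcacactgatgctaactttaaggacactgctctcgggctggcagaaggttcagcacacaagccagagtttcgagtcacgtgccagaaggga
RefSeq start regions were at hand for 5 of the 6 members, without S100a10. TATAAA began 30 bases before the start of S100a8, 31 bases before that of S100a4 and at the annotated start of S100a9 itself. It occurred on neither strand of the S100a6 and S100a11 windows. Of 32851 start regions of 300 bases, 13.6% held TATAAA on either strand and 1.99% held it on the gene's strand beginning 40 to 20 bases before the start. The letters TTNNGNAAT, a C/EBP-type motif, were found once among the 5 members, in S100a9 and on the opposite strand, 131 bases before the start, and in 11.5% of all start regions. TGANTCA, an AP-1-type motif, was found at 2 places, both in S100a11, 136 and 38 bases before the start, and in 7.81% of all start regions. These are matches of letters on either strand.

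The LPS_MCZ library held 8500 cell barcodes and 68467793 UMIs (unique molecular identifiers, each marking 1 captured transcript), and the LPS library 12577 barcodes and 90597705 UMIs. After filtering, 8314 LPS_MCZ cells (median 6180.0 UMIs) and 12075 LPS cells (median 5809 UMIs) were clustered without any S100 gene among the variable genes. Clusters were named from marker genes, so each class name below stands for cells like that type. Neutrophils led with 5712 LPS_MCZ cells and 7546 LPS cells. The libraries shared 243 cell barcodes, 2.86% of LPS_MCZ and 1.93% of LPS barcodes, and 67.9% of these pairs fell in the same class, against 22.9% for unrelated barcodes. They were concentrated in 2 clusters of very few UMIs per cell, cluster 15 (nearest to classical monocytes; 82 of 191 LPS_MCZ cells and 110 of 426 LPS cells) and cluster 19 (nearest to alveolar macrophages; 55 of 163 and 60 of 283), which are left out of the comparisons between the libraries. Outside these, 1.33% of LPS_MCZ cells and 0.642% of LPS cells were shared, and values without them are given where they matter.

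With 1 pooled library per group no test between the groups was possible, and the treatment cannot be told apart from the library. Levels are UMIs of a gene over all UMIs of the class, scaled to CPM, and 1 tag is counted per transcript whatever its length. Ratios are log2 of LPS_MCZ over LPS with 1 CPM added, and a gene is called higher or lower past 0.5. Brackets hold 95% counting intervals, exact Poisson for levels, from the counts without the added 1 CPM for ratios, and Clopper-Pearson for shares of cells, which do not cover differences between mice. Fewer transcripts of a gene and more of all others give the same CPM and cannot be told apart.

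S100a8 and S100a9 were the neutrophil genes of the set. Neutrophils held 92.8% of all S100a8 UMIs in the LPS_MCZ library and 93.0% in the LPS library, and 93.1% and 93.4% of the S100a9 UMIs. The pair took 16.3% of all neutrophil UMIs in LPS_MCZ and 18.0% in LPS. S100a8 stood at 63359 CPM in LPS_MCZ neutrophils and 69927 CPM in LPS neutrophils, and S100a9 at 99311 and 109732 CPM. Nearly every neutrophil carried the pair: with each cell thinned to 2000 UMIs, S100a8 was seen in 99.7% of LPS_MCZ and 99.7% of LPS neutrophils and S100a9 in all 5580 LPS_MCZ cells and 99.99% of the 7362 LPS cells. The median cell had 96 S100a8 UMIs of 2000 in LPS_MCZ and 122 in LPS, with quartiles of 29 and 176 in LPS_MCZ and 44 and 189 in LPS. The spread between cells within each library was therefore wider than the gap between the medians.

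S100a6 and S100a11 were also most abundant in neutrophils among the 12 largest classes and clusters, clusters 15 and 19 included. S100a6 stood at 6037 CPM [6012, 6062] in LPS_MCZ neutrophils and 3258 CPM [3241, 3274] in LPS neutrophils. S100a11 stood at 2078 CPM [2063, 2092] in LPS_MCZ and 1771 CPM [1759, 1783] in LPS. Neutrophils gave 81.5% of the S100a6 UMIs of LPS_MCZ and 73.4% of those of LPS. The remaining pair was nearly absent from them: S100a4 stood at 46.0 CPM in LPS_MCZ neutrophils and 12.6 CPM in LPS neutrophils, and S100a10 at 21.3 and 11.9 CPM.

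**Figure D1:**
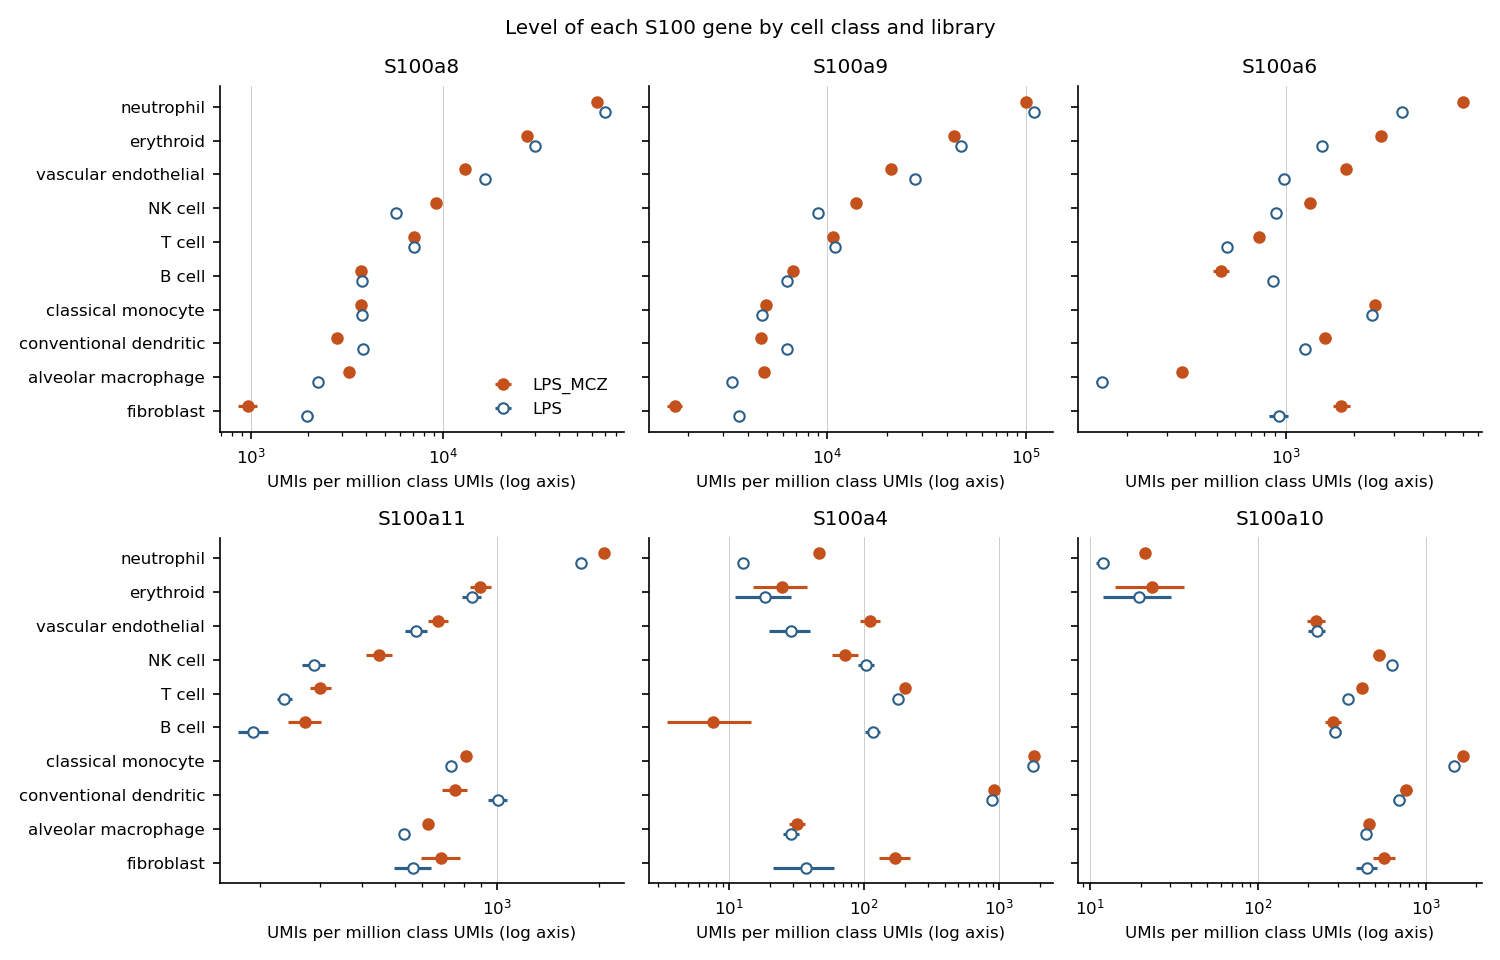
Level of each gene in CPM (log axis) in 10 cell classes, filled points for LPS_MCZ and open points for LPS, with 95% counting intervals. S100a8 and S100a9 are highest in neutrophils and follow a similar class order, whereas S100a4 and S100a10 are highest in classical monocytes, at 1808 and 1664 CPM in LPS_MCZ.

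Between the libraries, 3 of the 6 members were higher in LPS_MCZ neutrophils and 0 were lower. Over the 10622 genes with at least 50 UMIs in neutrophils, 12.6% were called higher and 4.32% lower, and the median log2 ratio was 0.12, against 0.51 for the 6 members. S100a6, the calcyclin gene, had a log2 ratio of 0.89 [0.88, 0.90]. S100a4, a motility-linked myosin partner, had 1.79 [1.73, 2.00], and S100a10, the annexin A2 partner, had 0.79 [0.69, 1.00]. S100a11 had 0.23 [0.22, 0.24], S100a8 -0.14 [-0.14, -0.14] and S100a9 -0.14 [-0.15, -0.14], all short of 0.5. Without the added 1 CPM the median gene was 0.16 higher in LPS_MCZ. Relative to it, and likewise without the added 1 CPM, S100a6 was at 0.73, S100a4 at 1.70, S100a10 at 0.68, S100a11 at 0.071 and S100a8 and S100a9 each at -0.30, and the background became 12.5% higher and 12.2% lower. The S100a6 difference was spread over the cells: of cells thinned to 2000 UMIs, 96.8% [96.3, 97.3] of LPS_MCZ neutrophils and 88.8% [88.1, 89.5] of LPS neutrophils had a UMI, with medians of 11 and 5 UMIs and lower quartiles of 5 and 2.

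The S100a4 and S100a10 differences in neutrophils rest on low levels. S100a4 was seen in 6.65% [6.01, 7.33] of thinned LPS_MCZ neutrophils and 2.46% [2.12, 2.84] of LPS neutrophils, against 4.55% [1.49, 10.3] and 3.79% [1.24, 8.62] of erythroid cells. Without thinning the neutrophil shares were 12.6% and 6.27%. Erythroid cells are no clean blank for a neutrophil transcript. In them 10 neutrophil marker genes stood at a median of 37.9% of their neutrophil level in LPS_MCZ and 45.1% in LPS. S100a10 was seen in 4.16% of LPS_MCZ and 2.40% of LPS neutrophils, against 6.36% and 3.79% of erythroid cells. All 4 neutrophil shares lay within the erythroid intervals, but these are wide, so this says little. By level S100a4 stood at 46.0 CPM in neutrophils and 24.5 CPM in erythroid cells of LPS_MCZ, and at 12.6 and 18.5 CPM in those of LPS. Over the 8 neutrophil clusters described next it ran from 8.44 to 87.7 CPM in LPS_MCZ and from 6.82 to 31.2 CPM in LPS, lowest in cluster 7 and highest in cluster 4. As a second gauge, 6 classical monocyte markers stood in neutrophils at a median of 0.857% of their monocyte level in LPS_MCZ (0.526% to 38.6%) and 0.743% in LPS (0.335% to 27.5%). S100a4 stood at 2.55% of its monocyte level in LPS_MCZ neutrophils and 0.701% in LPS neutrophils, and S100a10 at 1.28% and 0.804%. In LPS both genes were thus at the level of the monocyte markers, and in LPS_MCZ both were above their median. The part that free RNA plays in the differences was not tested.

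The neutrophil class combined 8 clusters whose shares differed widely between the libraries. Cluster 4 held 31.7% of LPS_MCZ and 4.44% of LPS neutrophils, cluster 6 held 26.7% and 2.86%, cluster 2 held 3.89% and 25.5%, and cluster 8 held 5.90% and 24.1%. Values within clusters are therefore given beside the class. S100a8 was highest in cluster 7, whose leading genes Camp, Ltf and Ngp are secondary granule genes of immature neutrophils, at 108777 CPM in LPS_MCZ and 93691 CPM in LPS. It was lowest in the clusters led by Il23a and Csf1 or by Ccl3, Ccl4 and Ptgs2, inflammatory genes of activated neutrophils. In cluster 4 (Il23a, Csf1) it stood at 19703 CPM in LPS_MCZ and 14071 CPM in LPS, and in cluster 0 (Ccl3, Ccl4, Ptgs2) at 13382 and 19908 CPM. The range between clusters was 8.13-fold in LPS_MCZ and 6.66-fold in LPS, far above the difference between the libraries.

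S100a9 followed S100a8 over the clusters, with a 5.10-fold range in LPS_MCZ and 4.96-fold in LPS, but the balance of the pair shifted. In cluster 7 there were 1.33 S100a9 UMIs per S100a8 UMI in LPS_MCZ and 1.46 in LPS. In cluster 4 there were 2.05 and 2.02, and in cluster 0 2.13 and 1.89. Clusters with more transcripts of 10 activation genes, such as Ccl3, Cxcl2, Tnf and Icam1, had, with small exceptions in the order, less of both calprotectin genes and more S100a9 per S100a8, in both libraries. The summed level of these 10 genes was 17098 CPM in LPS_MCZ and 18551 CPM in LPS in cluster 7, against 48601 and 58909 CPM in cluster 4 and 79640 and 84533 CPM in cluster 0. S100a11 ran with S100a8, from 995 CPM in cluster 0 to 2515 CPM in cluster 7 in LPS_MCZ. S100a6 did not: it was highest in cluster 3, at 7813 CPM in LPS_MCZ and 4650 CPM in LPS, and its range was 1.98-fold in each library.

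**Figure D2:**
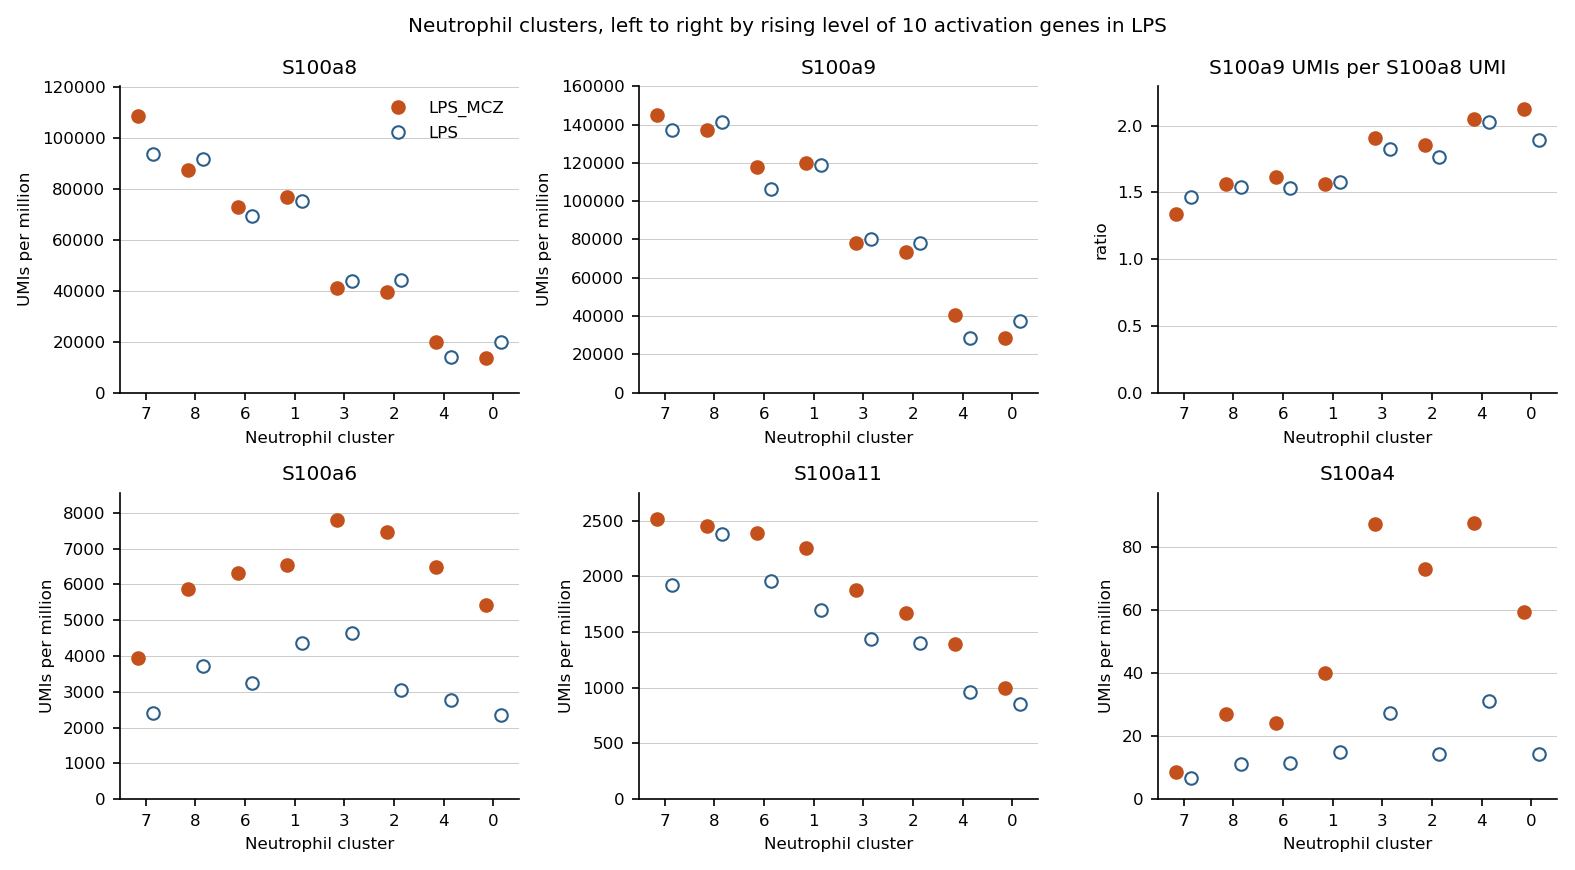
Level of 5 genes (CPM) and the number of S100a9 UMIs per S100a8 UMI in each of the 8 neutrophil clusters, ordered from left to right by the summed level of 10 activation genes in LPS; filled points are LPS_MCZ and open points LPS. S100a8, S100a9 and S100a11 are mostly lower toward the right, the S100a9 to S100a8 balance is mostly higher there, and S100a6 and S100a4 are higher in LPS_MCZ in all 8 clusters.

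Within clusters the members split in the same way as in the class. In the 8 clusters 11.2% to 21.5% of genes were called higher and 7.20% to 16.5% lower. S100a6 was called higher in 8 of 8 clusters, with log2 ratios of 0.59 to 1.28. S100a4 was called higher in 7 of 8 (0.27 to 2.27), S100a10 in 6 of 8 (0.16 to 0.96) and S100a11 in 1 of 8 (0.04 to 0.54). S100a8 was above 0 in 4 clusters and below 0 in 4, and was called lower in 1, cluster 0 (64 LPS_MCZ and 743 LPS cells). Most clusters came mainly from 1 library, such as cluster 4 (1811 and 335 cells) and cluster 2 (222 and 1925 cells), with no batch correction. A ratio within such a cluster sets many cells of 1 library against few of the other. S100a9 was called higher in 1, cluster 4, at 0.50. Cluster shares were next taken as shares of the neutrophil UMIs, not of the cells. With the cluster shares of LPS_MCZ applied to both libraries, the log2 ratio was 0.11 for S100a8, 0.11 for S100a9, 0.93 for S100a6, 0.34 for S100a11, 1.37 for S100a4 and 0.76 for S100a10. With the shares of LPS applied to both, it was 0.02, -0.01, 0.86, 0.25, 1.60 and 0.53 in the same order. The lower S100a8 and S100a9 of the LPS_MCZ class were thus not seen at equal cluster shares, and without cluster 4 the class ratios of S100a8 and S100a9 turned to 0.12 and 0.080. The higher S100a6 was present at either set of shares.

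**Figure D3:**
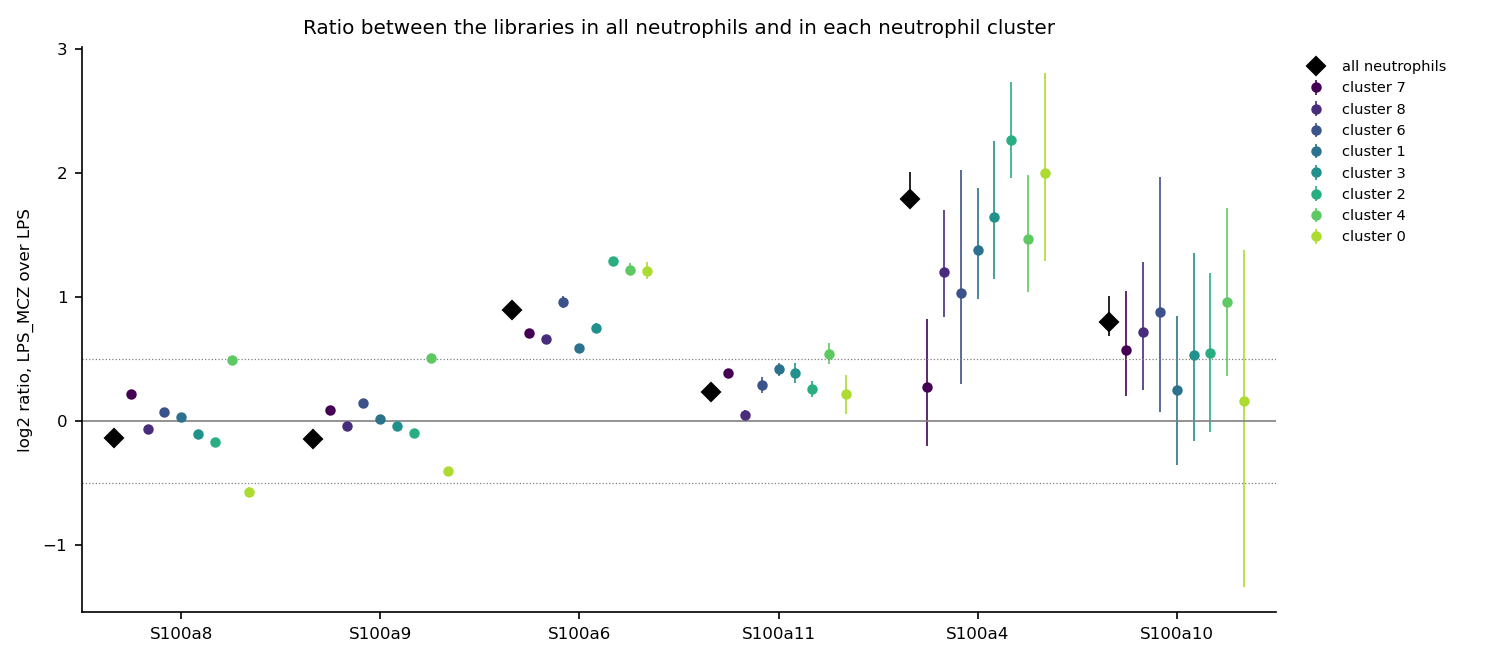
Log2 ratio of LPS_MCZ over LPS for each gene in all neutrophils (black diamonds) and in each of the 8 neutrophil clusters (circles, from low to high level of the activation genes), with 95% counting intervals of the ratio without the added 1 CPM; dotted lines mark 0.5 either way. S100a6 lies above 0.5 in all 8 clusters, at 0.59 to 1.28, whereas S100a8 lies on both sides of 0.

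Outside neutrophils, S100a8 and S100a9 were seen in every class, at levels that tracked other neutrophil transcripts. For each class the level was set as a percent of the neutrophil level of the same library, beside the median of the same percent over 10 neutrophil-only genes such as Retnlg, Cxcr2 and Ly6g. These genes are also the markers that named the neutrophil class, and they spread around their median. In classical monocytes they ran from 4.23% to 18.0% in LPS_MCZ and from 3.71% to 20.5% in LPS. In T cells they ran from 9.79% to 14.5% and from 10.1% to 14.1%. The name is a label only: in mast or basophil cells the highest stood at 384% in LPS_MCZ and 439% in LPS. Values set against the median carry this spread. In erythroid cells S100a8 stood at 43.1% in LPS_MCZ and 42.9% in LPS, and the neutrophil-only genes at 37.9% and 45.1%. In T cells S100a8 stood at 11.2% and 10.2%, and the neutrophil-only genes at 11.5% and 11.9%. In vascular endothelial cells S100a8 stood at 20.7% and 23.6%, and the neutrophil-only genes at 23.0% and 26.2%. Over 9 classes in both libraries, 18 values, the S100a8 percent was 0.541 to 1.14 times that of the neutrophil-only genes, with a median of 0.859, and for S100a9 0.612 to 1.15 times, with a median of 0.844. S100a8 was seen in 85.5% of LPS_MCZ and 90.9% of LPS erythroid cells at 2000 UMIs, so a share of cells with a S100a8 UMI says little about which cells express it. The S100a8 UMIs outside neutrophils were unevenly spread over cells. The 5 highest cells held 69.8% of them in LPS_MCZ and 60.5% in LPS B cells. They held 33.9% and 29.3% in vascular endothelial cells, 33.0% and 28.1% in alveolar macrophages and 15.7% and 11.5% in classical monocytes. In the far larger neutrophil class they held 0.542% and 0.454%. How much of these levels is free RNA, cells caught together with a neutrophil or expression by those classes was not tested. As one gauge, the neutrophil profile scaled to the median percent of the neutrophil-only genes was subtracted from each class, and values left after this are given below where they change a ratio.

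S100a6 stood differently from class to class. In alveolar macrophages, erythroid cells and vascular endothelial cells it stood near the neutrophil-only genes: at 5.79% in LPS_MCZ and 4.77% in LPS of its neutrophil level in alveolar macrophages, where those genes stood at 6.27% and 4.65%, at 43.5% and 44.2% in erythroid cells, and at 30.4% and 30.003% in endothelial cells. In these classes the log2 ratio of S100a6 between the libraries was 1.16, 0.87 and 0.91, beside 0.89 in neutrophils. In every class such a ratio follows from the neutrophil ratio and the class percents, so this arithmetic points to no source. Whether the ratios in these classes are separate from the neutrophil difference was not tested. In endothelial cells the neutrophil-only genes stood at 23.0% and 26.2%. With the neutrophil profile subtracted, 450 CPM of S100a6 were left there in LPS_MCZ and 123 CPM in LPS. In classical monocytes S100a6 stood at 40.8% in LPS_MCZ and 73.4% in LPS, far above the 5.39% and 5.22% of the neutrophil-only genes, and its ratio was 0.04. Dendritic cells and fibroblasts also lay above, with S100a6 at 24.6% and 37.1% in dendritic cells against 5.88% and 6.80%, and at 29.1% and 28.6% in fibroblasts against 2.81% and 5.02%. In lymphocytes the percents differed between the libraries: S100a6 stood at 12.7% in LPS_MCZ and 16.97% in LPS in T cells, at 21.1% and 27.9% in NK cells and at 8.59% and 26.9% in B cells, where the neutrophil-only genes stood at 11.5% and 11.9%, at 13.9% and 10.2% and at 8.21% and 6.33%. The neutrophil level beneath these percents was itself higher in LPS_MCZ, at 6037 against 3258 CPM. By CPM, S100a6 was higher in LPS_MCZ than in LPS in T cells (765 against 553) and NK cells (1273 against 909). In B cells it was lower in LPS_MCZ (519 against 875). Among these 9 classes S100a11 lay furthest above the neutrophil-only genes in fibroblasts, macrophages, monocytes and dendritic cells.

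**Figure D4:**
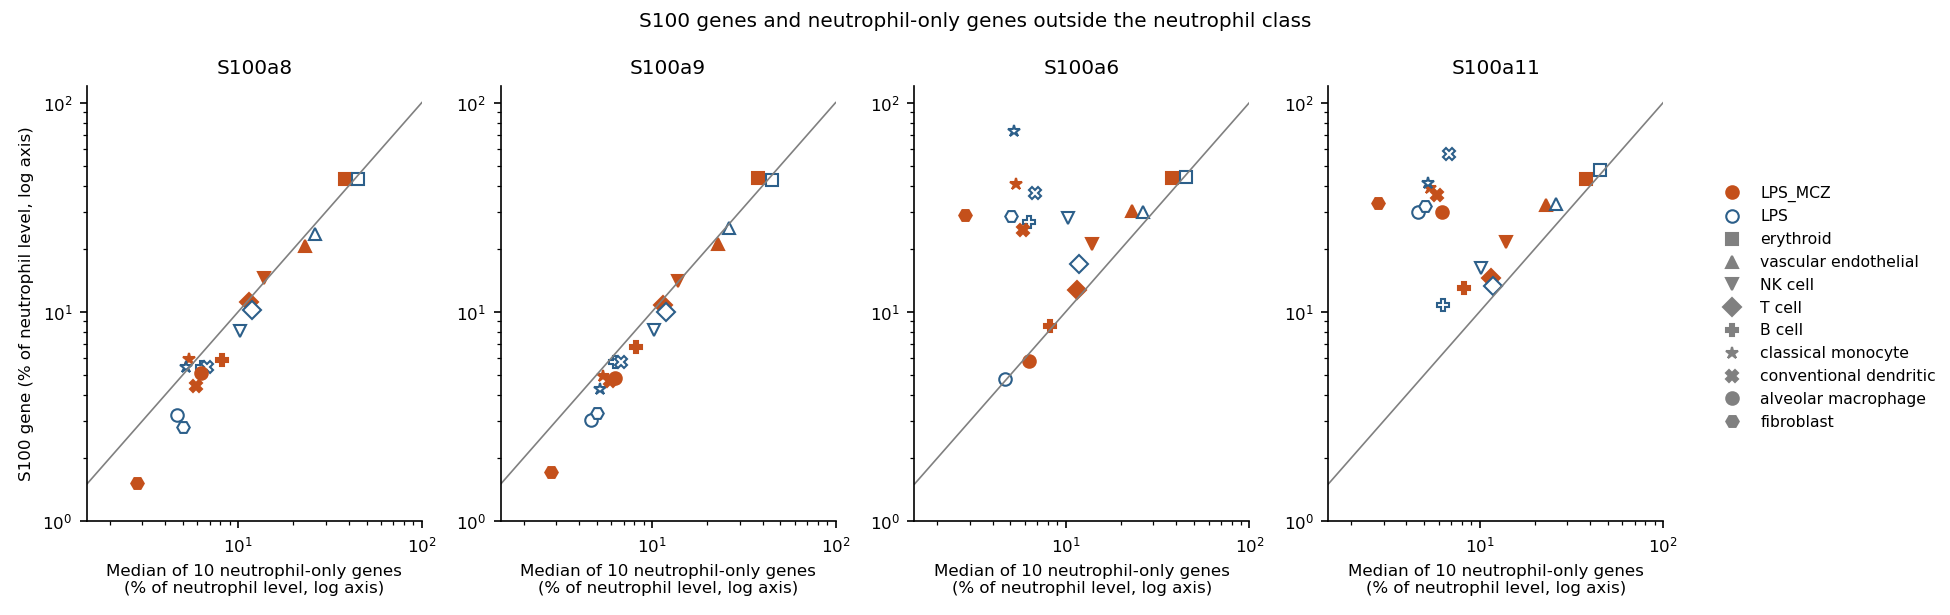
Level of S100a8, S100a9, S100a6 and S100a11 in 9 classes outside neutrophils, as a percent of the neutrophil level of the same library (vertical log axis), against the median of the same percent over 10 neutrophil-only genes (horizontal log axis); filled symbols are LPS_MCZ, open symbols LPS, shapes are classes and the line marks equality. S100a8 and S100a9 lie at 0.541 to 1.15 times the line, and S100a6 lies on it in alveolar macrophages (5.79% and 4.77%) and far above it in classical monocytes (40.8% and 73.4%).

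Classical monocytes, 643 LPS_MCZ and 884 LPS cells, held most of the S100a4 and S100a10 UMIs. They held 82.0% of all S100a4 UMIs in LPS_MCZ and 83.0% in LPS, and 69.7% and 63.9% of S100a10 UMIs. S100a4 stood at 1808 CPM [1785, 1832] in LPS_MCZ monocytes and 1802 CPM [1781, 1824] in LPS monocytes, and S100a10 at 1664 CPM [1642, 1687] and 1473 CPM [1454, 1493]. Shares of UMIs also depend on the number and depth of the cells in each class. By level, S100a10 came near that of monocytes in cluster 15 (1196 CPM in LPS_MCZ and 1443 CPM in LPS). It also did in cluster 102 (1526 and 1186 CPM) and, in LPS, in ciliated cells (803 and 1310 CPM). At 2000 UMIs per cell S100a4 was seen in 90.5% [88.0, 92.7] of LPS_MCZ and 88.5% [86.2, 90.6] of LPS monocytes, against the 4.55% and 3.79% of erythroid cells given above. S100a6 stood at 2460 and 2390 CPM, S100a11 at 812 and 734 CPM. Of the 6 members 0 were called higher and 0 lower in monocytes, with log2 ratios of -0.02 to 0.18, where 4.11% of 10871 genes were called higher and 4.28% lower.

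The class held a cycling cluster, 17 (38 LPS_MCZ and 59 LPS cells, led by Top2a and Mpo), beside the main cluster 10 (605 and 825 cells). Cluster 17 had less S100a4 (953 CPM in LPS_MCZ and 830 CPM in LPS) than cluster 10 (1935 and 1957 CPM), and about as much S100a10 (1822 and 1372 CPM against 1641 and 1489 CPM). S100a8 in monocytes stood at 3774 CPM in LPS_MCZ and 3816 CPM in LPS, or 5.96% and 5.46% of the neutrophil level, close to the neutrophil-only genes. With the neutrophil profile subtracted, 362 CPM of S100a8 were left in LPS_MCZ monocytes and 166 CPM in LPS monocytes, a log2 ratio of 1.12, and S100a9 was below 0 CPM in both. The balance of the pair differed from that of neutrophils: monocytes had 1.30 [1.28, 1.32] S100a9 UMIs per S100a8 UMI in LPS_MCZ and 1.23 [1.22, 1.25] in LPS, against 1.57 in neutrophils of both libraries. In cluster 17 the balance was 1.07 and 0.992. Without the shared barcodes, which were 6.22% of LPS_MCZ and 1.13% of LPS monocytes, the ratios between the libraries ran from 0.06 for S100a8 and S100a4 to 0.17 for S100a10.

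Cluster 11, which met the nonclassical monocyte markers but was not led by them, had 588 CPM of S100a4 in LPS_MCZ and 563 CPM in LPS, which is 32.5% and 31.2% of the level in classical monocytes. Conventional dendritic cells (48 LPS_MCZ and 75 LPS cells) had 925 and 889 CPM of S100a4 and 765 and 695 CPM of S100a10. Of the 6 members 0 were called either way in dendritic cells, where 19.4% of 4804 genes were called higher and 12.2% lower.

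In T cells S100a4 and S100a10 were higher in 1 of 2 clusters, and few cells held much of the S100a4. Over the whole class 55 of 313 LPS_MCZ and 138 of 926 LPS T cells carried S100a4. The 5 highest cells held 54.2% of its UMIs in LPS_MCZ and 26.0% in LPS, and 31.25% and 10.7% of those of S100a10. Cluster 22 (78 LPS_MCZ and 244 LPS cells), led by Ctla4, Ikzf2 and Icos, genes of activated and regulatory T cells, had 639 CPM of S100a4 in LPS_MCZ and 550 CPM in LPS. Cluster 9 (235 and 682 cells), led by Lef1, Satb1 and Bach2, genes of resting T cells, had 20.7 and 23.2 CPM. S100a10 stood at 1082 CPM in LPS_MCZ and 833 CPM in LPS in cluster 22, against 141 and 141 CPM in cluster 9. S100a6 was higher in cluster 22 as well, at 1180 and 1079 CPM against 594 and 334 CPM. S100a8 did not differ in this way, at 6815 and 6667 CPM in cluster 22 against 7180 and 7297 CPM in cluster 9. Between the libraries 0 of the 6 members were called either way in T cells, where 6.46% of 9195 genes were called higher and 4.44% lower. That count depends on the clustering: with each library clustered on its own, S100a4 had a log2 ratio of 2.38, S100a10 1.39, S100a6 1.13 and S100a11 0.54. It also depends on whether the neutrophil profile is subtracted. After this S100a6 was left at 69.9 CPM in LPS_MCZ and 166 CPM in LPS, a log2 ratio of -1.24 in place of 0.47. S100a11 was left at 62.0 and 25.3 CPM, a log2 ratio of 1.26. The subtraction overshot for S100a8, which was left at -219 CPM in LPS_MCZ and -1184 CPM in LPS, so these values carry its error. The part of free RNA was not tested.

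**Figure D5:**
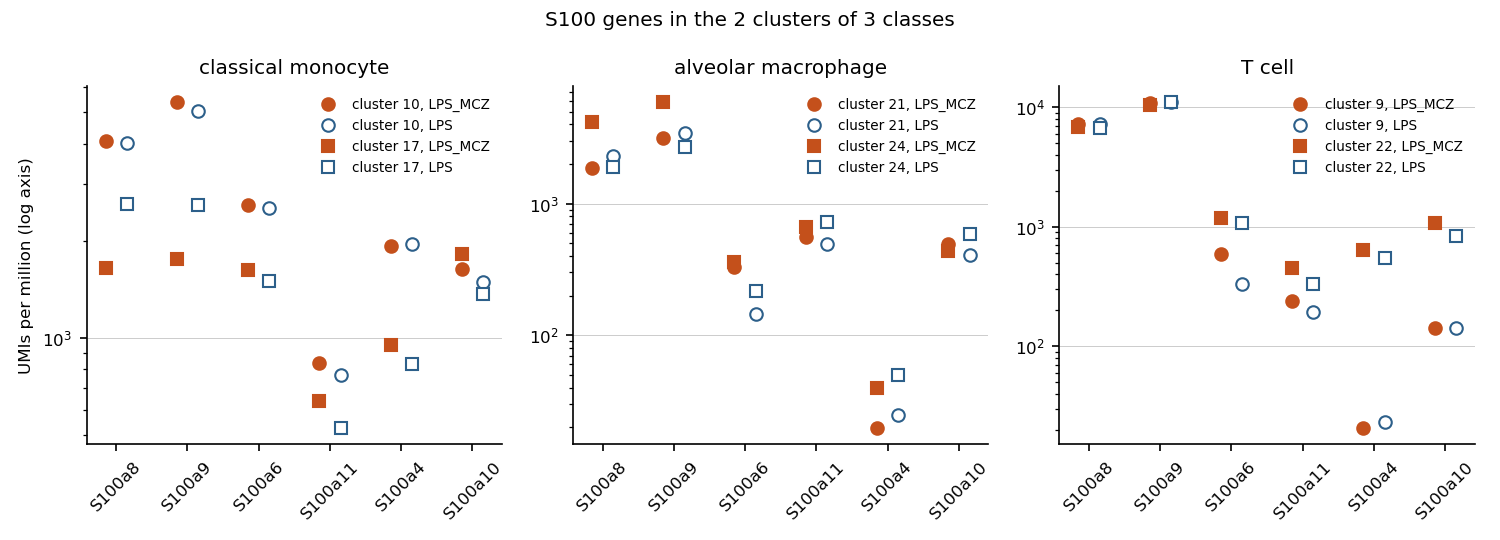
Level of each gene (CPM, log axis) in the 2 clusters of classical monocytes, alveolar macrophages and T cells; circles and squares are clusters, filled symbols LPS_MCZ and open symbols LPS. In T cells S100a4 stands at 639 and 550 CPM in cluster 22 and at 20.7 and 23.2 CPM in cluster 9, and in alveolar macrophages S100a8 differs between the libraries in opposite directions in clusters 21 and 24.

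Alveolar macrophages, 267 LPS_MCZ and 351 LPS cells, expressed S100a10 and S100a11 of the set. S100a11 stood at 626 CPM [606, 645] in LPS_MCZ and 532 CPM [516, 549] in LPS, or 30.1% and 30.04% of the neutrophil level, and S100a10 at 461 CPM [445, 479] and 438 CPM [424, 454]. S100a4 was low, at 31.9 and 28.7 CPM, and 5 cells held 67.7% of its UMIs in LPS_MCZ and 71.5% in LPS. Of the 6 members 3 were called higher and 0 lower, where 11.7% of 9735 genes were called higher and 6.08% lower: S100a6 at 1.16 [1.07, 1.27], S100a8 at 0.53 [0.50, 0.56] and S100a9 at 0.52 [0.50, 0.55]. These are the 3 members that stood near the level of the neutrophil-only genes in this class, whose own median was 6.27% of the neutrophil level in LPS_MCZ and 4.65% in LPS. With the neutrophil profile subtracted, S100a8 and S100a9 were below 0 CPM in both libraries and S100a6 in LPS_MCZ, so no ratio was left. The clusters of the class disagreed: S100a8 had a log2 ratio of -0.30 in cluster 21 (94 LPS_MCZ and 287 LPS cells) and 1.12 in cluster 24 (173 and 64 cells), where the neutrophil-only median was 4.74% and 4.80% in cluster 21 and 7.10% and 3.64% in cluster 24. S100a8 and S100a9 fell short of 0.5 at a lower clustering resolution (0.27 and 0.33), with each library clustered on its own (0.26 and 0.30) and under a stricter cell filter (0.31 and 0.34).

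The B cell and endothelial differences in S100a4 rest on few cells. In B cells (108 LPS_MCZ and 303 LPS cells) S100a4 stood at 7.63 CPM [3.49, 14.5] in LPS_MCZ and 116 CPM [101, 132] in LPS, from 9 and 231 UMIs, a log2 ratio of -3.76 [-5.07, -2.98]. In LPS 27 of 303 B cells carried it, and 5 cells held 73.6% of the UMIs. S100a6 was also lower in LPS_MCZ B cells, at 519 and 875 CPM, with 43.1% and 38.9% of its UMIs in 5 cells. Of the 6 members 1 was called higher and 2 lower in B cells, where 11.7% of 7066 genes were called higher and 9.07% lower. The member called higher was S100a11, at 0.50 [0.28, 0.72], at the edge of the threshold. With the neutrophil profile subtracted S100a11 was at 0.34, S100a4 at -4.58 and S100a6 at -4.79, from 23.2 CPM left in LPS_MCZ and 669 CPM in LPS. With the highest doublet scores removed, S100a8 and S100a9 in B cells had log2 ratios of 1.86 and 1.74, in place of -0.02 and 0.10. In vascular endothelial cells (218 LPS_MCZ and 242 LPS cells) S100a4 stood at 112 CPM [93.5, 132] in LPS_MCZ and 28.6 CPM [19.9, 39.7] in LPS, a log2 ratio of 1.93 [1.42, 2.55], and 5 cells held 77.6% and 74.3% of its UMIs. The 6 monocyte markers were also higher there, at a median of 5.14% of their monocyte level in LPS_MCZ and 1.35% in LPS, beside 6.17% and 1.59% for S100a4, and their part in the difference was not tested. Of the 6 members 2 were called higher and 0 lower in endothelial cells, where 11.1% of 6361 genes were called higher and 8.44% lower. The second was S100a6, at 0.91, which fell short of 0.5 with each library clustered on its own (0.25). With the neutrophil profile subtracted S100a6 was at 1.86 and S100a11 at 0.75 there, in place of 0.91 and 0.21.

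NK cells (133 LPS_MCZ and 289 LPS cells) had S100a10 at 527 CPM in LPS_MCZ and 628 CPM in LPS and S100a6 at 1273 and 909 CPM. There 3 members were called higher, S100a8 (0.69), S100a9 (0.63) and S100a11 (0.64), and 1 lower, S100a4 (-0.50), where 6.59% of 6771 genes were called higher and 6.56% lower. These differences rest on few cells too. S100a4 had 83 LPS_MCZ and 221 LPS UMIs, with 80.7% and 50.7% of them in 5 cells. The 5 highest cells held 49.7% and 30.3% of the S100a8 UMIs, 45.3% and 26.6% for S100a9 and 27.6% and 17.9% for S100a11. The neutrophil-only genes stood in NK cells at 13.9% of their neutrophil level in LPS_MCZ and 10.2% in LPS, beside 14.5% and 8.12% for S100a8. At the lower clustering resolution S100a8 (0.48), S100a9 (0.41) and S100a11 (0.39) all fell short of 0.5 in NK cells, and S100a4 did with each library clustered on its own (-0.49) and once cells of high doublet score were removed (-0.28). With the neutrophil profile subtracted S100a11 was at 0.58 and S100a6 at -0.41, in place of 0.48, and S100a8 and S100a9 were below 0 CPM in LPS. In ciliated cells and in clusters 102 and 106, too few cells for a comparison, the levels describe the genes only. Ciliated cells (7 LPS_MCZ and 8 LPS cells) had the highest S100a11 of any named class, at 6399 CPM in LPS_MCZ and 6373 CPM in LPS, and S100a6 at 4464 and 4404 CPM. Clusters 102 and 106, whose leading genes included Msln, Upk3b and Igfbp5 (24 LPS_MCZ and 24 LPS cells, and 12 and 11 cells), had S100a6 at 6473 CPM in LPS_MCZ and 3874 CPM in LPS and at 4954 and 5561 CPM. In those clusters S100a10 stood at 898 to 1526 CPM. Shared barcodes made up 5 of the 24 LPS_MCZ and 6 of the 24 LPS cells of cluster 102, and 0 of cluster 106. Without them cluster 102 (19 LPS_MCZ and 18 LPS cells) had S100a6 at 6905 CPM in LPS_MCZ and 3775 CPM in LPS, and S100a10 at 1622 and 1136 CPM.

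The members' partners, receptors and regulators, a list of 21 genes, were counted in the same way. In neutrophils 7 of 21 were called higher in LPS_MCZ and 0 lower, with a median log2 ratio of 0.33, beside the 12.6% and 4.32% of all genes. Relative to the median gene and without the added 1 CPM, 5 of 21 were past 0.5 and 0 below -0.5, with a median of 0.17, beside 12.5% and 12.2% of all genes: Ahnak (1.16), Cebpa (1.09), Cebpe (1.04), Anxa5 (0.58) and Ager (0.54), whereas Nptn (0.47), Anxa2 (0.44) and Myh9 (0.44) fell short. Anxa2, the partner of S100a10, stood at 1416 CPM in LPS_MCZ and 934 CPM in LPS (0.60), and Myh9, the partner of S100a4, at 438 and 289 CPM (0.60). Ahnak, a scaffold of the S100a10 and annexin A2 complex, stood at 135 and 54.1 CPM (1.30), and Anxa5 at 32.9 and 19.7 CPM (0.71). Nptn, a receptor for S100A8 known from human keratinocytes, stood at 135 and 87.5 CPM (0.62). Cebpe and Cebpa, transcription factors of granulocyte development, stood at 15.7 and 6.84 CPM (1.09) and at 5.70 and 2.39 CPM (0.98). Anxa1, the partner of S100a11, stood at 1858 and 2260 CPM (-0.28), Tlr4 at 210 and 199 CPM (0.08) and Ager at 2.63 and 1.62 CPM (0.47), none of them past 0.5 with the added 1 CPM.

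In classical monocytes 1 partner of the 20 with at least 50 UMIs was called higher, Cebpa (0.61), and 1 lower, Cebpd (-0.59). In alveolar macrophages 4 of 19 were called higher and 0 lower, namely Cd36 (0.80), a scavenger receptor that binds S100a8 and S100a9 with arachidonic acid, Cebpa (0.75), Anxa11 (0.64) and Anxa1 (0.54). Of the other S100 genes, 11 in all, 6 had at least 50 UMIs in neutrophils and 0 of these were called either way. S100a13 had the most UMIs of them, at 70.6 CPM in LPS_MCZ and 52.3 CPM in LPS. In alveolar macrophages S100a1, best known from cardiac muscle, stood at 176 CPM in LPS_MCZ and 108 CPM in LPS (0.69), which is more S100a1 than in neutrophils, at 3.79 and 2.54 CPM.

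Over the 12 largest classes and clusters in both libraries, clusters 15 and 19 included, 24 values, the log2 level of S100a8 and that of S100a9 had a correlation of 0.99, and S100a8 and S100a10 one of -0.80. Without clusters 15 and 19 they were 0.995 and -0.85 over 20 values. The values share libraries and the free RNA described above, so they are a description of these levels. Among 10204 genes the most similar to S100a8 were Cxcr2, Il1r2, Il1f9, Hdc and Mrgpra2b (0.96 to 0.97), and 4 of the 5 most similar to S100a9 were among them, with G0s2 as the fifth. For S100a6 they were Hp, Card19, Ltb4r1, Gm14548 and Mefv (0.88 to 0.89), for S100a11 Anxa1, Msrb1, Gpr84, Tlr4 and Plaur (0.91 to 0.92), and for S100a4 Tiam1, Btbd16, Cmklr1, Arhgef10l and Aif1 (0.87 to 0.89). The 5 most similar to S100a10 were the respiratory chain and ATP synthase genes Ndufc1, Ndufb8, Atp5g1, Cox6a1 and Cox4i1 (0.96 to 0.97).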

How the data were processed

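Lung cells of 1 LPS_MCZ and 1 LPS library were profiled with 10x Genomics droplets. The deposited matrices hold raw UMI counts per gene and barcode, made with Cell Ranger 7.0.0 per the file headers; bcl2fastq 2.20 and the mm10 build are per the submitters' processing notes. Whether intronic reads were counted, and whether strand was used, is not stated in any source used. The members, gene lists and settings were chosen with earlier results of these data known.

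Cells with at least 200 genes, 500 UMIs and at most 20% mitochondrial UMIs were kept. Scrublet called 0 LPS_MCZ and 1 LPS doublet, so it did not work here; that cell was removed, and removing the highest scores (553 and 1166 cells) is an alternative. Both libraries were clustered together with no batch correction (scanpy 1.11.5, 2000 variable genes without S100 genes, 30 components, 15 neighbours, Leiden resolution 1.0). The fibroblast cluster, which also led with epithelial genes, was clustered again at 0.5 after this was seen. A class needed 3 markers at a log2 ratio of 1 over the 25th percentile of clusters. Clusters under 0.3333 of the median UMIs with 0 own markers among 10 leading genes stayed unnamed, as did clusters led by other classes' genes. The rules on leading genes were set after the clusters were seen. Interstitial macrophages, club cells and platelets had few UMIs or cells and are not compared.

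UMIs were summed per class and library. The pseudocount was 1 CPM, a gene needed 50 UMIs, and called means past 0.5 on the log2 scale. Named genes are the 6 members, 11 other S100 genes (S100a2 was added after the values were seen), 21 partners, receptors and regulators, and the 5 genes most correlated with each member (10 CPM added). Intervals cover counting error only, since amplified reads and pooled mice add variation that counting does not show. On simulated neutrophil counts of 10622 genes, 90.0% of 200 genes made higher by 1 on the log2 scale and 82.0% of 200 made lower by 1 passed 0.5, as did 0.0480% and 0.0576% of the unchanged genes. The simulated counts varied by Poisson counting error only, around 1 mean shared by both libraries. In the real neutrophils 12.6% of genes were called higher and 4.32% lower, so the simulated shares are not error rates of these calls.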

Additional observations from a re-analysis of the deposited data

Results flagged for a closer look

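S100a4 differed between the libraries in opposite directions in a pair of classes: its log2 ratio of LPS_MCZ over LPS was 1.93 in vascular endothelial cells and -3.76 in B cells. S100a6 did so too, with 1.16 in alveolar macrophages and -0.75 in B cells. With 1 pooled library per group the difference between the classes was not tested in either case. The S100a4 values rest on 134 LPS_MCZ and 35 LPS UMIs in endothelial cells and on 9 and 231 UMIs in B cells. With the neutrophil profile subtracted, S100a6 in alveolar macrophages was left at -28.7 CPM in LPS_MCZ and 4.06 CPM in LPS, so no ratio was left. In B cells the 5 highest cells held 43.1% of the S100a6 UMIs in LPS_MCZ and 38.9% in LPS.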

How the results depend on the processing

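No paired analysis was possible because each group is 1 pooled library and the result comes from no test. For the same reason no replicate could be left out. In neutrophils, with ratios scaled to the median gene, S100a8 was at -0.30, S100a9 at -0.30, S100a4 at 1.70, S100a6 at 0.73, S100a10 at 0.68 and S100a11 at 0.071. With the 6 members taken out of the class totals, S100a8 was at -0.17, S100a9 at -0.17, S100a6 at 0.87 and S100a11 at 0.21. With the highest doublet scores removed, S100a8 was at -0.15, S100a9 at -0.16 and S100a11 at 0.21, and with each library clustered on its own S100a9 was at -0.14. Without neutrophil cluster 4, an alternative chosen after seeing the data, S100a8 was at 0.12, S100a9 at 0.080, S100a4 at 1.35, S100a6 at 0.85, S100a10 at 0.56 and S100a11 at 0.36, so that S100a8 and S100a9 changed sign, and neither was past 0.5 either way. S100a4, S100a6 and S100a10 were above 0.5 in neutrophils under every alternative run. With at least 1 UMI in each library as the filter, 3045 genes were past 0.5 in alveolar macrophages, in place of 1734, and 1502 in classical monocytes, in place of 912. With the neutrophil profile subtracted as free RNA, S100a8 in classical monocytes was at 1.12 in place of -0.02, S100a6 in T cells at -1.24 in place of 0.47 and S100a6 in NK cells at -0.41 in place of 0.48. Leaving out shared barcodes, leaving clusters 15 and 19 out of the correlations and counting partners relative to the median gene were also chosen after seeing the data. Levels of a few UMIs per class are below what this depth can tell from free RNA, and intervals do not cover differences between mice. Whether shares near those of erythroid cells are expression or free RNA cannot be told, since erythroid cells also carried neutrophil transcripts. The causes of these shifts were not tested.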
